A study of Mus musculus with 18 samples.

Results

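The 10 genes Slc7a11, Gclc, Gclm, Gss, Gsr, Ggt1, G6pdx, Pgd, Taldo1 and Tkt, which make and recycle glutathione or supply the NADPH this needs, were examined in RAW264.7 macrophages and in mouse liver. They were chosen by name for these roles, with earlier results of these data known, and all 10 are among the 21441 genes of each table. RNA-seq values came from 3 control, 3 LPS and 3 LPS+MIC-1 libraries of each source. RAW264.7 cells are an established mouse line that resembles macrophages, LPS (lipopolysaccharide) is a cell wall component of Gram-negative bacteria that activates macrophages, and MIC-1 is moringa isothiocyanate-1. The macrophage groups were a control (a solvent control in the study's text, saline in its series record), LPS alone, and LPS with 10 µM MIC-1. The sample labels of these cultures repeat the mouse doses, and the LPS concentration of the sequenced cultures is not given in the sources used here. The mice were male C57BL/6 animals in groups of 6, of which 3 libraries each were sequenced, and their age is not given in the labels. Control mice received vehicle (10% DMSO) by gavage and a saline injection, LPS mice 10 mg/kg LPS into the peritoneum, and LPS+MIC-1 mice 80 mg/kg MIC-1 by gavage for 3 days and then the same LPS dose. Livers were taken 16 h after the injection. No group of either source received MIC-1 without LPS, so each MIC-1 comparison is one in the presence of LPS.

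Glutathione is the main small thiol of the cell, and electrophiles such as isothiocyanates are bound to it. Its synthesis starts from cysteine, which cells take up largely as cystine through the exchanger encoded by Slc7a11 with its partner chain Slc3a2. The ligase that joins glutamate and cysteine consists of a catalytic subunit (Gclc) and a modifier subunit (Gclm) and sets the pace of the pathway, and Gss adds glycine. Oxidized glutathione is returned to the reduced form by Gsr at the expense of NADPH, and Ggt1 breaks glutathione down outside the cell. NADPH comes in large part from the pentose phosphate pathway, from the dehydrogenases G6pdx and Pgd, while Taldo1 and Tkt encode the transaldolase and transketolase of its non-oxidative branch. Many of these genes are textbook targets of the transcription factor Nrf2, and Slc7a11 is also a target of Atf4, the factor of the amino acid response.

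Values are FPKM, fragments normalised for transcript length and sequencing depth, and libraries are numbered in each group by their order in the table. Fold changes are differences in log2(FPKM + 0.5), which understates the change of low genes. Genes with a mean above 1 FPKM were tested with limma, and a gene was counted as changed with an absolute log2 fold change above 1 and an adjusted p-value below 0.01 in macrophages or below 0.05 in liver. From the deposited values, the number of reads was recovered, with 16.2 to 20.6 M per macrophage library and 4.24 to 17.3 M per liver library, with the lowest depth in liver control libraries 2 and 3. Macrophage markers such as Lyz2 and Csf1r summed to between 10596 and 15344 FPKM in the macrophage libraries, and hepatocyte markers such as Alb to between 54515 and 110180 FPKM in the liver libraries. LPS library 2 of the macrophages stood apart. Its FPKM values summed to 598270, near the controls (557136 to 592848), against 1137533 and 1132904 in LPS libraries 1 and 3. The study used 2 of its 3 LPS libraries without naming them in the text, so macrophage results are given for all 9 libraries as labelled and for the 8 without LPS library 2. Libraries 1 and 3 of each macrophage group lay close together (median squared difference 1.78 to 2.59 times the sampling variance, against 8.61 to 181 for pairs with library 2). The labels do not say whether libraries come from separate cultures, so p-values measure the spread between these libraries, which may be technical. Liver libraries were unevenly spaced as well. On the same measure, LPS libraries 1 and 3 differed by 8.25, against 78.3 and 124 for pairs with library 2. LPS+MIC-1 libraries 1 and 3 differed by 2.66, against 43.7 and 48.9. In control, libraries 2 and 3 were the close pair (7.12, against 43.4 and 55.7 for pairs with library 1).

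In macrophages, Slc7a11, Gclm and G6pdx were higher with LPS+MIC-1 than in control, with all 9 libraries and with 8. They made up 3 of the 9 members tested with a rise, where 3.27% of all genes were called higher and 2.32% lower over the 9 libraries, and 7.55% higher and 8.2% lower over the 8. No member was called lower. The median log2 fold change of the 9 members was 0.52, against -0.04 over all genes tested. Ggt1 was listed at 0 FPKM in all 9 libraries and was not tested.

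The cystine exchanger gene Slc7a11 was at 1.69, 2.60 and 1.56 FPKM in control libraries 1, 2 and 3, at 13.7, 2.27 and 13.8 FPKM under LPS, and at 80.8, 125 and 79.7 FPKM under LPS+MIC-1. The 3 LPS+MIC-1 libraries lay far above every other library, and LPS libraries 1 and 3 lay between them and the controls, while LPS library 2 lay within the control range. The log2 fold change between LPS+MIC-1 and control was 5.28 (standard error 0.59, limma adjusted p = 0.00121) over 9 libraries and 5.28 (0.21, adjusted p = 2.84e-06) over 8. This moved the gene from the ninth level among the 10 members in control to the sixth with LPS+MIC-1, where its mean of 95.2 ± 25.8 FPKM (SD, n = 3) overlapped that of Gsr (93.2 ± 27.6).

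Gclm, the modifier subunit of the ligase, was at 24.8, 23.7 and 25.8 FPKM in control, 33.4, 23.9 and 36.3 FPKM under LPS and 117, 225 and 113 FPKM under LPS+MIC-1. The LPS+MIC-1 libraries did not overlap the others, and library 2 was the highest of them. The log2 fold change against control was 2.52 (standard error 0.27, limma adjusted p = 0.00104) over 9 libraries and 2.52 (0.24, 8.69e-05) over 8. G6pdx, the gene of the dehydrogenase that commits glucose 6-phosphate to the pentose phosphate pathway, was at 127, 135 and 128 FPKM in control, 101, 143 and 102 under LPS, and 258, 355 and 256 under LPS+MIC-1. Its log2 fold change against control was 1.14 (standard error 0.18, limma adjusted p = 0.00459) over 9 libraries and 1.14 (0.12, 0.000152) over 8. The 9-library call of G6pdx was lost when any 1 control or LPS+MIC-1 library was left out (0.98 to 1.22, adjusted p 0.0131 to 0.0286). Over 8 libraries it was lost without LPS+MIC-1 library 2, where the log2 fold change was 0.98. G6pd2, a near-identical retrogene copy of G6pdx, was at 0 to 0.0677 FPKM in these libraries.

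The stretches of promoter sequence below show short motifs of the 2 responses in the 3 genes that rose. The windows are from RefSeq (build GRCm38.p6), run from 250 bases before to 50 after a start site, and were found for 8 of the 10 members, not for Gclc and Gsr. Of each, only bases before the start are printed, 5′ to 3′ on the strand of the gene. The Gclm stretch holds 180 bases and ends 71 bases before the start used for its window, because the longest RefSeq model of Gclm begins upstream of that start. The other stretches run up to the start. The motifs were the core of the antioxidant response element bound by Nrf2 (TGACNNNGC) and the core of the amino acid response element bound by Atf4 (TGATGCAA), searched on both strands and chosen with the members' values known. The former can overlap the AP-1 site TGACTCA. Capitals mark matches, of the amino acid element in Slc7a11 and of the antioxidant element in G6pdx and Gclm. The stretches are chr3:50443614-50443863 (minus strand), chrX:74428881-74429130 (minus strand) and chr3:122245307-122245486 (plus strand).
Slc7a11: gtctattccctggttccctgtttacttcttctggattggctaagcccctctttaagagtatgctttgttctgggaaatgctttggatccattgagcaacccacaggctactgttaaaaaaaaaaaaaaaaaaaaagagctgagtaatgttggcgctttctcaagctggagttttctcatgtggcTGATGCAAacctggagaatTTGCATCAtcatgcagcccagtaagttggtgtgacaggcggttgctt
G6pdx: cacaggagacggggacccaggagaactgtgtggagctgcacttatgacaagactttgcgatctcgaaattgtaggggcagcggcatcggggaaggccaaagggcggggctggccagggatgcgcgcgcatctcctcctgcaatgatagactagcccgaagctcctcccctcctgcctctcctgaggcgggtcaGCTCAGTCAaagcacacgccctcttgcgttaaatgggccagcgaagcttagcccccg
Gclm: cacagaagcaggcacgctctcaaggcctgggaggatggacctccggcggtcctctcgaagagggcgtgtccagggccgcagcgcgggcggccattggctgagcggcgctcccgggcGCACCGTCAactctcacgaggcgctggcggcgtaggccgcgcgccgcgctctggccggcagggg

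In Slc7a11 the amino acid motif occurred 2 times, 66 to 59 and 47 to 40 bases before the start and on opposite strands, and it was in no other member's window. Of all 32851 windows, 0.895% held it. The antioxidant motif lay 57 to 49 bases before the start of G6pdx and 134 to 126 before that of Gclm, both on the opposite strand. For Gclm this is counted from the start used for its window, so the motif lies nearer to the upstream start. The antioxidant motif was also in windows of Pgd, where it lay after the start, and Ggt1, 4 members in all, and not in that of Slc7a11. Of all windows 12.4% held it. The 8 members had 12 windows, with more than 1 for Pgd and for Ggt1, so the 4 members cannot be set directly against that share. A match of letters is a description of these windows only.

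**Figure D1:**
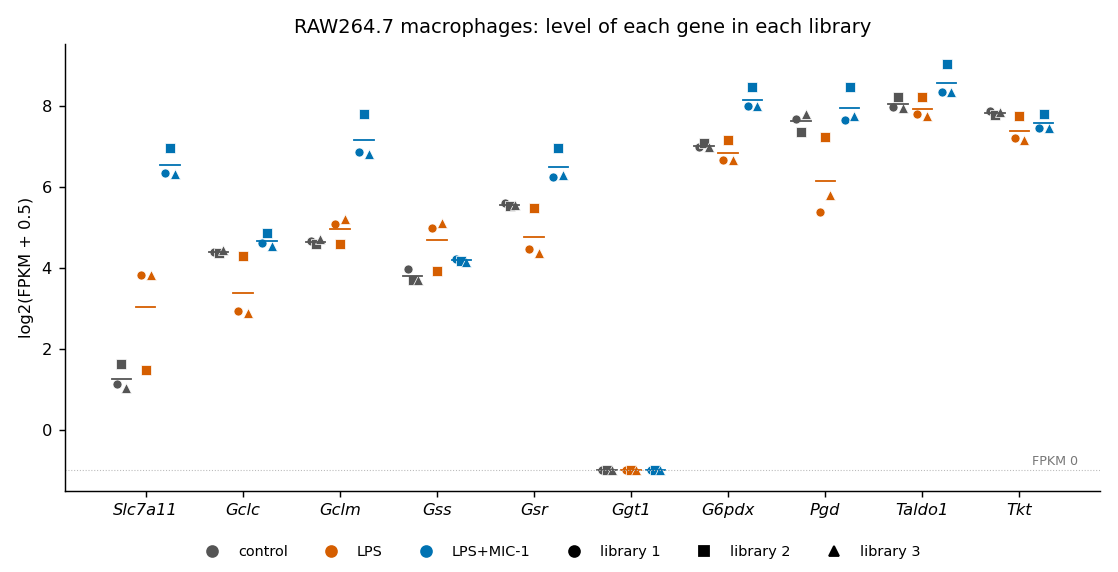
Level of the 10 genes in each macrophage library, as log2(FPKM + 0.5) on the vertical axis, with colour for the treatment, marker shape for the library number and a short line for the mean of the 3 libraries. LPS+MIC-1 libraries are highest for Slc7a11 (79.7 to 125 FPKM), Gclm (113 to 225 FPKM) and G6pdx (256 to 355 FPKM). They are also highest for Gsr (76.3 to 125 FPKM), Gclc (22.8 to 28.7 FPKM) and Taldo1 (326 to 527 FPKM), which were not called against control. LPS library 2 sits near the controls, and Ggt1 is at 0 FPKM.

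The other members were not called between LPS+MIC-1 and control in macrophages. The catalytic subunit Gclc was at 20.4, 20.1 and 21.4 FPKM in control, 7.14, 19.4 and 6.86 under LPS and 24.2, 28.7 and 22.8 under LPS+MIC-1. Its values with LPS+MIC-1 lay just above the controls, and the log2 fold change was 0.28 (95% interval -0.52 to 1.08 over 9 libraries, 0.06 to 0.49 over 8). Gsr, which regenerates reduced glutathione, was at 48.4, 45.9 and 46.9 FPKM in control, 21.6, 44.6 and 20.2 under LPS and 76.3, 125 and 78.4 under LPS+MIC-1. All 3 LPS+MIC-1 libraries were above all controls. Gsr stayed under the fold threshold in the 8 libraries (log2 fold change 0.94, standard error 0.18, limma adjusted p = 0.00241) and passed it without LPS+MIC-1 library 1 (1.07) or 3 (1.05). Over the 9 libraries its adjusted p was 0.0597. The levels with LPS+MIC-1 against control were thus unequal among the glutathione genes, with log2 fold changes of 5.28 for Slc7a11, 2.52 for Gclm, 0.94 for Gsr, 0.40 for Gss and 0.28 for Gclc.

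The second dehydrogenase gene of the pentose phosphate pathway, Pgd, was at 206, 166 and 225 FPKM in control, 41.5, 151 and 55.1 under LPS and 202, 358 and 216 under LPS+MIC-1. Its control and LPS+MIC-1 ranges overlapped (log2 fold change 0.34, 95% interval -0.70 to 1.38 over 9 libraries). Taldo1 was at 255, 300 and 248 FPKM in control, 223, 300 and 217 under LPS and 327, 527 and 326 under LPS+MIC-1, and was the highest member in each macrophage group by its mean. Tkt was at 237, 221 and 232 FPKM in control, 148, 216 and 144 under LPS and 176, 223 and 178 under LPS+MIC-1. Against control the log2 fold change with LPS+MIC-1 was 0.52 for Taldo1 and -0.26 for Tkt, neither past the threshold.

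**Figure D2:**
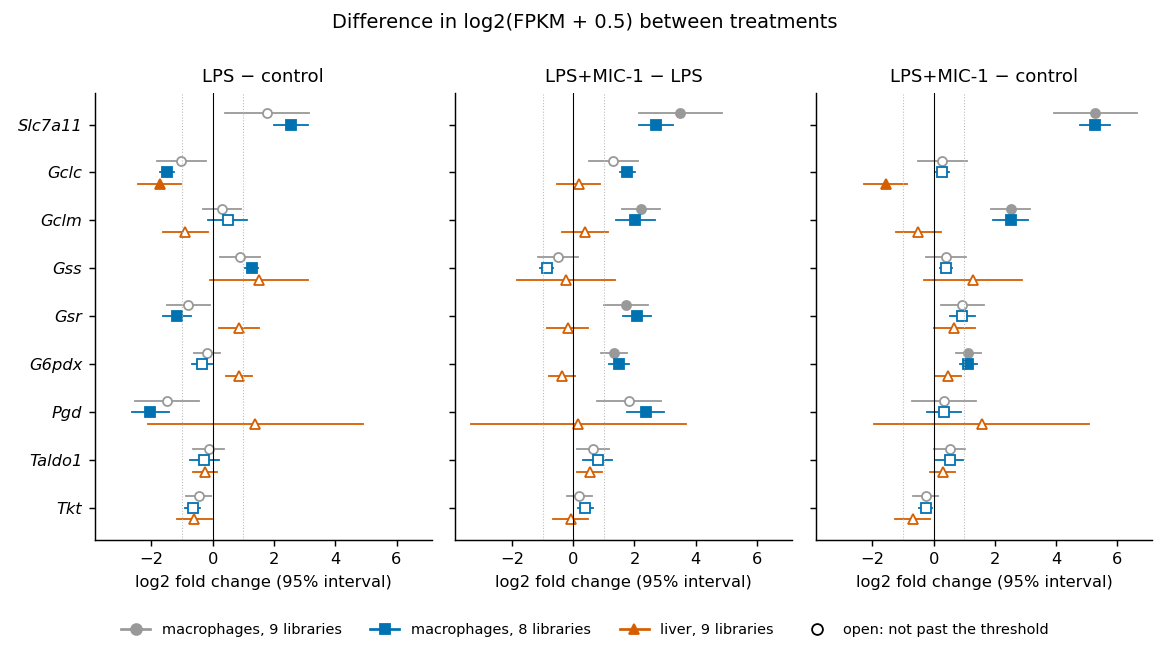
Log2 fold change of each member on the horizontal axis with its 95% interval from limma, for the 3 comparisons (panels), in macrophages with 9 and 8 libraries and in liver. Filled symbols passed the threshold. Slc7a11 (5.28), Gclm (2.52) and G6pdx (1.14) are filled for LPS+MIC-1 against control in macrophages, and only Gclc (-1.74 and -1.56) is filled in liver.

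LPS alone against control gave 0 called members of 9 over the 9 macrophage libraries (limma), where 0% of all genes were called higher and 0% lower. At an unadjusted p-value below 0.05 there were 6 of the 9 members and 4928 of the 9905 genes. Over the 8 libraries 2 members rose and 3 fell, against 16.3% of all genes higher and 17.9% lower. Slc7a11 rose by a log2 fold change of 2.57 (standard error 0.24, limma adjusted p = 3.38e-05) and Gss by 1.27 (0.10, 1.34e-05). Gss, the second enzyme of glutathione synthesis, was at 15.2, 12.6 and 12.6 FPKM in control and 31.5, 14.8 and 34.5 with LPS. The genes that fell were Pgd (log2 fold change -2.03, standard error 0.26, limma adjusted p = 0.000199), Gclc (-1.50, 0.10, 7.98e-06) and Gsr (-1.15, 0.20, 0.000978). These 5 calls rest on LPS libraries 1 and 3, a close pair.

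The scaling of the libraries bears on these values. When the FPKM of each library were brought to one common sum, the median log2 fold change of all genes between LPS and control moved from -0.02 to -0.93 over 8 libraries. On that scale Slc7a11 (1.67) and Gss (0.30) lay above that median and Pgd (-3.02), Gclc (-2.43) and Gsr (-2.12) below it, but the call of Gss was lost (adjusted p = 0.0304). There G6pdx (-1.34), Taldo1 (-1.27) and Tkt (-1.64) were called lower as well. Gclm, not called on either scale, went from 0.48 to -0.49. The call of G6pdx between LPS+MIC-1 and control was lost on that scale (0.95 over 9 libraries and over 8), while those of Slc7a11 (5.16) and Gclm (2.33) held.

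LPS+MIC-1 against LPS shares the LPS libraries with the comparison above. Over the 9 macrophage libraries 4 of 9 members were higher, where 2.06% of all genes were called higher and 1.81% lower, and the median of the members was 1.33 against -0.01 over all genes. These were Slc7a11 (log2 fold change 3.50, standard error 0.59, limma adjusted p = 0.00705), Gclm (2.21, 0.27, 0.00213), Gsr (1.73, 0.31, 0.00894) and G6pdx (1.33, 0.18, 0.00325). The count fell to 1 without control library 1 or 3, LPS library 3 or any 1 of the LPS+MIC-1 libraries, to 2 without control library 2 and to 0 without LPS library 1, and it rose to 6 without LPS library 2. Gclm alone kept its call except without LPS library 1 (2.27, adjusted p = 0.01005). Over the 8 libraries the 6 were Slc7a11 (2.71), Pgd (2.37), Gsr (2.09), Gclm (2.03), Gclc (1.77) and G6pdx (1.49), with limma adjusted p-values from 7.21e-06 to 0.000335, against 11.3% of all genes higher and 12% lower. Gss went the other way by a log2 fold change of -0.87 (standard error 0.10), which is under the fold threshold. It was at 18.4, 17.7 and 17.4 FPKM under LPS+MIC-1, below LPS libraries 1 and 3 and above LPS library 2. Over the 9 libraries its log2 fold change was -0.49 (limma adjusted p = 0.242). With FPKM brought to one common sum, Gss stood at -0.08 over 8 libraries (limma adjusted p = 0.504), so its fall depended on the scaling. There the median of all genes moved from 0.01 to 0.74, and Taldo1 (1.60) and Tkt (1.19) were called higher as well.

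Ratios of 2 genes within a library do not depend on how the libraries were scaled. The ratio of Gclc to Gclm in macrophages was 0.823, 0.849 and 0.832 in control, 0.214, 0.810 and 0.189 under LPS, and 0.206, 0.128 and 0.202 under LPS+MIC-1. It was thus low in every LPS+MIC-1 library and in LPS libraries 1 and 3. The mean log2 ratio with LPS+MIC-1 was lower than in control by 2.24 (exact permutation test, two-sided, p = 0.1). The ratio of Slc7a11 to its partner Slc3a2 was 0.0154, 0.0196 and 0.0142 in control, 0.0675, 0.0172 and 0.0689 under LPS and 0.220, 0.243 and 0.216 under LPS+MIC-1. Slc3a2 itself was at 110, 133 and 110 FPKM in control and 368, 514 and 369 FPKM under LPS+MIC-1. The ratio of G6pdx to Tkt was 0.535 to 0.612 in control, 0.661 to 0.705 under LPS and 1.44 to 1.59 under LPS+MIC-1, and the 3 groups did not overlap. An exact test of 3 against 3 libraries cannot give a p-value below 0.1, so none of the ratio tests could pass 0.05.

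**Figure D3:**
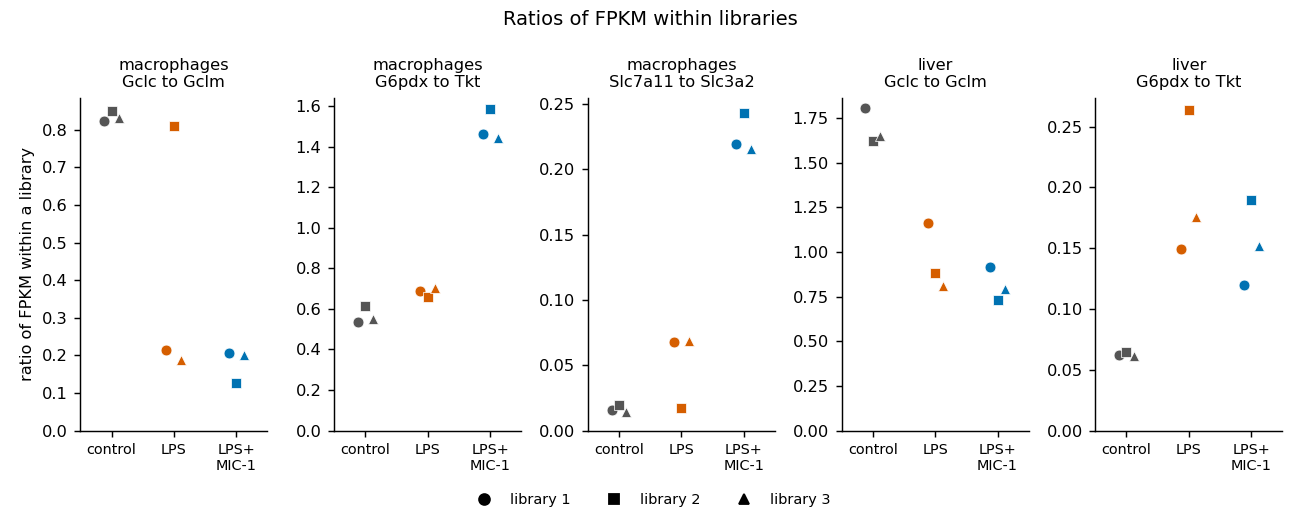
Ratio of FPKM of 2 genes within each library on the vertical axis, by treatment, for macrophages (3 panels) and liver (2 panels), with marker shape for the library number. The ratio of Gclc to Gclm is 0.823 to 0.849 in macrophage controls and 0.128 to 0.206 under LPS+MIC-1, and 1.62 to 1.81 in liver controls and 0.729 to 0.918 under LPS+MIC-1.

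In liver the member that changed was Gclc, and it fell. It was at 128, 103 and 112 FPKM in control libraries 1, 2 and 3, at 29.3, 57.4 and 23.0 FPKM under LPS and at 40.6, 36.4 and 38.0 FPKM under LPS+MIC-1. Every LPS and LPS+MIC-1 library lay below every control. The log2 fold change against control was -1.74 (standard error 0.31, limma adjusted p = 0.00582) with LPS and -1.56 (0.31, adjusted p = 0.00723) with LPS+MIC-1, 2 comparisons that share the controls. Of the 8 members tested, 0 were called higher and 1 lower with LPS, where 13.4% of all genes were higher and 11.2% lower. With LPS+MIC-1 these counts were again 0 and 1, where 13.8% of all genes were higher and 11.5% lower. With 1 of 8 members, the share called lower is near that of all genes. The 2 members left out for low values were Slc7a11, at 0.0379 to 0.126 FPKM, and Ggt1, at 0 to 0.0435 FPKM (at most 1 read per library).

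LPS library 2 of the liver lay between or within the other groups for several members. Gclm was at 70.9, 63.6 and 67.8 FPKM in control, 25.2, 65.2 and 28.4 under LPS and 44.2, 49.9 and 48.0 under LPS+MIC-1. Gsr was at 21.2, 20.1 and 19.5 FPKM in control, 49.1, 23.0 and 45.8 under LPS and 31.0, 39.9 and 28.4 under LPS+MIC-1. Gss was at 10.8, 1.35 and 5.08 FPKM in control, 22.9, 5.75 and 17.8 under LPS and 17.4, 9.21 and 8.99 under LPS+MIC-1. In each, LPS libraries 1 and 3 lay outside the control range and LPS library 2 near or within it. With all libraries the log2 fold change with LPS was -0.89 for Gclm (limma adjusted p = 0.061), 0.87 for Gsr (0.0468, under the fold threshold) and 1.51 for Gss (0.12). Without LPS library 2, 4 of the 8 members tested passed, where 19% of all genes were higher and 15.6% lower. Gclc (-2.11) and Gclm (-1.32) were lower, and Gsr (1.21) and Gss (2.09) higher. Their limma adjusted p-values were 0.000344, 0.000693, 0.00194 and 0.0414 in that order. In each direction the share of members was little above that of all genes. These 4 calls rest on LPS libraries 1 and 3, a close pair. Gss also passed without control library 1 (2.11, adjusted p = 0.0419), and its values rest on 13.9 to 706 recovered reads.

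The ratio of Gclc to Gclm in liver was 1.81, 1.62 and 1.65 in control, 1.16, 0.880 and 0.810 under LPS and 0.918, 0.729 and 0.792 under LPS+MIC-1. Both groups that received LPS lay below the controls and overlapped each other, with mean log2 ratios lower than in control by 0.84 and 1.06 (exact permutation test, two-sided, p = 0.1 for each, the smallest possible).

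**Figure D4:**
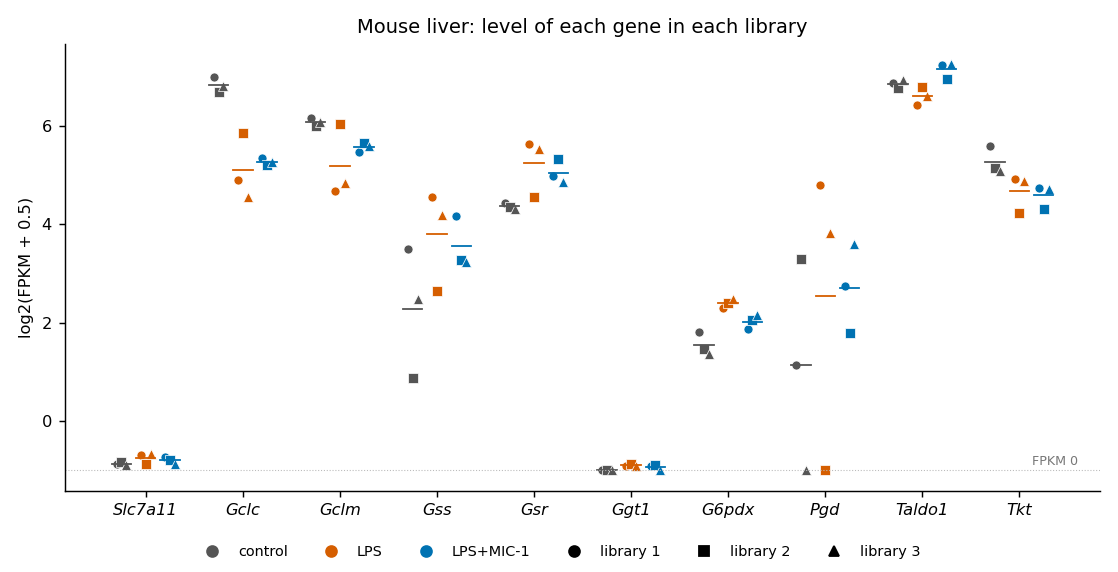
Level of the 10 genes in each liver library, as log2(FPKM + 0.5) on the vertical axis, with colour for the treatment, marker shape for the library number and a short line for the mean of the 3 libraries. Gclc is at 103 to 128 FPKM in control and at or below 57.4 FPKM in all other libraries, Slc7a11 and Ggt1 are near 0, and Pgd is listed at 0 in 2 libraries.

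The pentose phosphate genes of the liver gave no call. G6pdx was at 3.00, 2.26 and 2.07 FPKM in control, 4.44, 4.81 and 5.09 under LPS and 3.15, 3.66 and 3.94 under LPS+MIC-1. All LPS libraries exceeded all controls, with a log2 fold change of 0.85 (standard error 0.18, limma adjusted p = 0.0113) that stayed under the fold threshold. Tkt was at 48.1, 34.9 and 33.6 FPKM in control, 29.7, 18.3 and 28.9 under LPS and 26.4, 19.3 and 26.0 under LPS+MIC-1 (log2 fold changes -0.61 and -0.69 against control, limma adjusted p = 0.0882 and 0.0606). Taldo1 was at 117, 109 and 123 FPKM in control, 85.8, 111 and 97.1 under LPS and 151, 124 and 153 under LPS+MIC-1. Pgd had listed values of 1.71, 9.40 and 0 FPKM in the control livers, of 27.4, 0 and 13.6 under LPS and of 6.19, 2.95 and 11.7 under LPS+MIC-1, so its 3 groups overlapped. Of the liver genes, 323 were listed at 0 in 1 library and above 10 FPKM in another, and an exact 0 here may be a failed estimate. The ratio of G6pdx to Tkt was 0.0617 to 0.0647 in liver controls, 0.149 to 0.263 under LPS and 0.119 to 0.190 under LPS+MIC-1.

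LPS+MIC-1 against LPS in liver gave 0 called members of 8 with limma, where 0% of all genes were called higher and 0% lower. At an unadjusted p-value below 0.05 there was 1 member and 364 of the 10147 genes. That member was Taldo1, with a log2 fold change of 0.54 (95% interval 0.14 to 0.94, limma adjusted p = 0.997). For Gclc the interval was -0.52 to 0.88, for Gclm -0.35 to 1.13, for Gsr -0.84 to 0.47 and for G6pdx -0.79 to 0.05. Intervals this wide do not show that LPS and LPS+MIC-1 livers were alike. When all libraries were brought to one common sum, the median of all liver genes moved from 0.15 to -0.43 between LPS+MIC-1 and control. Gclm (-1.15) and Tkt (-1.33) were then called lower besides Gclc (-2.21), and the uncalled G6pdx and Taldo1 turned from 0.48 and 0.29 to -0.08 and -0.36. Between LPS and control Gclm (-1.26) was then called lower as well.

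Some cell type markers moved with the liver groups. The 7 macrophage markers found in the table summed to 54.2 to 83.3 FPKM in control, 247 to 263 under LPS and 199 to 226 under LPS+MIC-1. Fcer1g held most of that sum (means 33.2, 162 and 127 FPKM), while Csf1r stood at 5.88, 6.67 and 6.31 FPKM and Ptprc at or near 0. Neutrophil markers summed to 37.0 to 52.4, 351 to 449 and 192 to 463 FPKM in the same order, and went in both directions. With LPS 6 of the 7 tested were higher, led by S100a9 and S100a8, and Cxcr2, which made up most of the control sum, was lower (means 35.1, 7.05 and 5.23 FPKM), while Csf3r was listed at 0 in 6 of the 9 libraries. The 7 Kupffer cell markers also divided, with 2 higher and 2 lower with LPS and a median log2 fold change of -0.34, and 3 higher and 2 lower with LPS+MIC-1. Marco (means 3.83, 31.6 and 62.7 FPKM) and C1qb were higher in both comparisons, and Clec4f (24.3, 5.16 and 4.53 FPKM) and Vsig4 (4.80, 1.35 and 1.15 FPKM) were lower in both, so their sum of 73.8 to 80.0, 102 to 133 and 136 to 208 FPKM does not stand for each marker. The markers named were picked after their values were seen, as was Sesn2 further on. Lymphocyte markers summed to 13.8 to 17.7, 3.60 to 7.30 and 3.39 to 5.72 FPKM, and erythroid markers to 164 to 340, 129 to 173 and 113 to 146 FPKM. Endothelial markers (52.7 to 59.9, 39.6 to 57.6 and 52.4 to 56.9 FPKM) and stellate cell markers (121 to 241, 111 to 150 and 80.5 to 138 FPKM) overlapped between the groups. Cholangiocyte markers summed to 73.9 to 89.9, 101 to 105 and 75.6 to 90.4 FPKM. Hepatocyte markers, which stood at 108292 FPKM in control library 1 and 57224 and 54515 in control libraries 2 and 3, overlapped between the groups. Their part in the values of Gclc and the other members was not tested, and in bulk tissue fewer cells of a type and less RNA per cell cannot be told apart. In macrophages the neutrophil markers summed to 3.21 to 5.29 FPKM in control, 33.6, 5.56 and 43.9 under LPS and 691 to 757 under LPS+MIC-1. Retnlg and Ltf were at or near 0, and only 3 of the 9 markers found passed the filter on low values. These are RNA levels in cultures of a cell line, not a measure of neutrophils present. Their relation to the rise of Slc7a11, Gclm and G6pdx was not tested.

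Other genes of the same pathways were counted from lists chosen by function, with earlier results of these data known. Of the 16 tested genes of glutathione precursors, use and breakdown, 4 rose and 1 fell in macrophages between LPS+MIC-1 and control over 9 libraries, and 6 rose and 2 fell over 8. Of all genes, 3.27% were called higher and 2.32% lower over 9 libraries, and 7.55% and 8.2% over 8. Those that rose most were Cth, which makes cysteine from cystathionine (log2 fold change 2.52), Chac1, which degrades glutathione inside the cell (1.91), and Abcc1, an exporter of glutathione conjugates (1.84), and Gpx1, a glutathione peroxidase, fell by 1.10. Of the 14 other genes of NADPH supply 1 rose, the mitochondrial folate enzyme Aldh1l2 (2.10), and 1 fell, the mitochondrial isocitrate dehydrogenase Idh2 (-1.31), with 1 and 3 over 8 libraries, where Mthfd1 (-1.55) and Idh1 (-1.42) fell too. Among the 12 genes of the Nrf2 list 5 rose, led by the quinone reductase Nqo1 (4.98), the peroxiredoxin Prdx1 (3.22) and the sulfiredoxin Srxn1 (2.71), and 0 fell, with 8 and 1 (Keap1, -1.04) over 8 libraries. Of the 11 genes of the Atf4 list 4 rose, led by Trib3 (1.95), Chac1 (1.91) and Slc3a2 (1.81), and 0 fell, with 6 and 0 over 8. The medians of these lists were 0.30, -0.35, 1.50 and 1.10 in the order given, against -0.04 over all genes. The Atf4 and glutathione lists share Chac1 and Slc3a2. Nqo1 passed the filter on low values only through LPS+MIC-1, the group where it is high (means 0.106 FPKM in control, 0.477 with LPS and 21.2 with LPS+MIC-1).

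Over the 8 libraries, LPS against control raised 2 and lowered 3 of the glutathione list (Anpep 2.89 and Glrx 2.50, Slc1a5 -1.80, Slc1a4 -1.30 and Chac2 -1.22) and lowered 3 of the NADPH list (the folate enzymes Mthfd1l -1.76, Mthfd1 -1.72, and the isocitrate dehydrogenase Idh1 -1.61). In the Nrf2 list 4 rose, led by the ferritin genes Fth1 (3.53) and Ftl1 (3.28) and by Hmox1 (2.78), and Keap1 fell (-1.82). In the Atf4 list Ddit3, a stress-induced transcription factor, rose (2.86) and Shmt2 (-2.46) and the amino acid transporter Slc7a5 (-1.89) fell. The medians of the 4 lists were -0.08, -0.44, 0.67 and 0.14, against -0.02 over all genes. Since 16.3% of all genes were called higher and 17.9% lower here, the counts of the glutathione list (2 and 3 of 16) and those lower in the NADPH list (3 of 14) are near the background. Slc1a4 was at a mean of 0.426 FPKM in LPS libraries 1 and 3 and 1.80 in control. Between LPS+MIC-1 and LPS over 9 libraries 3, 1, 4 and 3 genes of the 4 lists rose and 0 fell, led by Cth (2.56), Aldh1l2 (1.80), Nqo1 (4.34) and Trib3 (1.78), with medians of 0.01, 0.21, 0.78 and 0.74 against -0.01 over all genes, of which 2.06% were called higher. Over 8 libraries, where 11.3% of all genes were called higher and 12% lower, 5 rose and 1 fell (Anpep, -1.72) in the glutathione list, 2 and 1 (Pgls, -1.04) in the NADPH list, 6 and 2 (Ftl1, -1.87, and Fth1, -1.68) in the Nrf2 list and 5 and 0 in the Atf4 list. Between LPS and control over 9 libraries 0 genes of the 4 lists were called.

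In liver the glutathione list held 1 gene higher (Gpx3, 1.42) and 1 lower (the bile canalicular exporter Abcc2, -1.25) of 20 tested between LPS and control. With LPS+MIC-1 it held 2 higher (Gpx1, 2.63, and Gpx4, 1.66) and Abcc2 lower (-1.15). Of 11 tested genes of the NADPH list, LPS raised 2 (the NAD kinase Nadk, 1.84, and Mthfd2, 1.55) and lowered 2 (the malic enzyme Me3, -1.82, and Mthfd1, -1.33), and with LPS+MIC-1 3 were higher than in control (Nadk 2.13, Pgls 1.25 and Mthfd2 1.15) and Me3 was lower (-1.93). In the Nrf2 list 4 of 12 were higher and 1 lower with LPS (Hmox1 2.54, Srxn1 1.48 and Fth1 1.44, and Osgin1 -2.05), and 4 and 2 under LPS+MIC-1 (Hmox1 2.45, Prdx1 1.84 and Cbr3 1.70, and Osgin1 -1.90 and Nfe2l2, the gene of Nrf2 itself, -1.36). In the Atf4 list 4 of 11 were higher with LPS, led by the asparagine synthetase Asns (2.63), Ddit3 (2.03) and Shmt2 (1.41), and 3 under LPS+MIC-1 (Asns 2.18, Ddit3 1.60 and Shmt2 1.14). Of all liver genes 13.4% were higher and 11.2% lower with LPS, and for LPS+MIC-1 these shares were 13.8% and 11.5%, so the counts of the glutathione list (1 and 1, then 2 and 1, of 20) are below the background, and a count of 2 of 11 in the NADPH list is near it. Me3 passed the filter on low values only through control (means 3.13 FPKM, 0.564 under LPS, 0.437 under LPS+MIC-1) and Cbr3 only through LPS+MIC-1 (0.486, 0.466 and 2.47 FPKM), so their calls, and that of Sesn2 in the Atf4 list with LPS (0.684 in control and 2.65 with LPS), are no independent support for their lists. With LPS the list medians were 0.27, 0.01, 0.23 and 1.39, and those for LPS+MIC-1 were 0.39, 0.62, 0.49 and 1.00, against 0.15 over all genes in both comparisons, and between LPS+MIC-1 and LPS 0 genes of the 4 lists were called. Slc3a2 was at 17.3 to 17.6 FPKM in the LPS+MIC-1 livers, below the control range of 21.0 to 26.0.

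The genes whose log2 level followed Slc7a11 most closely over the 9 macrophage libraries were Prdx1 (Pearson r = 0.999), Abcc1 (0.997) and Gm5483 (0.996). For Gclm they were Slc30a7 (0.997), Nqo1 (0.997) and Ctnnb1 (0.996), and for G6pdx they were Ufd1l (0.995), Afp (0.994) and Slc40a1 (0.994). Among the members, Gclm correlated with Slc7a11 at 0.949 and with G6pdx at 0.912, and Tkt with Slc7a11 at -0.421. In liver the genes nearest to Gclm were Mrpl14 (0.992), Mrpl23 (0.991) and Idh1 (0.988), with Gclc at 0.865 and Gsr at -0.925, and those nearest to G6pdx were Tmem43 (0.953), Tes (0.951) and G0s2 (0.946). These are descriptions over 9 libraries of 3 groups that share treatment, depth and scaling.

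By mean level in control macrophages the members ordered as Taldo1 (268 FPKM), Tkt (230), Pgd (199), G6pdx (130), Gsr (47.0), Gclm (24.8), Gclc (20.7), Gss (13.5), Slc7a11 (1.95) and Ggt1 (0), and Tkt and Pgd were the neighbours whose libraries overlapped. In control liver the order was Taldo1 (116 FPKM), Gclc (114), Gclm (67.4), Tkt (38.9), Gsr (20.3), Gss (5.73), then Pgd and G6pdx (2.45), with Slc7a11 at 0.0463 and Ggt1 listed at 0. There Taldo1 and Gclc overlapped, as did Gss, Pgd and G6pdx. The 2 tables were normalized separately, so levels are read within a table only.

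In mm9, the build the study aligned to, the members lie apart from each other on 9 chromosomes by its GENCODE annotation. The genes of uptake and synthesis are Slc7a11 (chr3:50168858-50247535, minus strand), Gclm (chr3:121948475-121972902, plus strand), Gclc (chr9:77602342-77642292, plus strand) and Gss (chr2:155388917-155418546, minus strand). Recycling and breakdown are encoded by Gsr (chr8:34762995-34808635, plus strand) and Ggt1 (chr10:75024349-75048945, plus strand). The pentose phosphate genes are G6pdx (chrX:71654822-71674533, minus strand), Pgd (chr4:148524100-148540880, minus strand), Taldo1 (chr7:148578098-148588867, plus strand) and Tkt (chr14:31361545-31387908, plus strand).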

How the data were processed

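RNA was sequenced at BGI. The authors pseudoaligned the reads with kallisto 0.45.0 to RefSeq transcripts of mm9 and combined transcripts into genes with tximport, and FPKM values scaled between libraries by DESeq2 1.20.0 are what they deposited. Their DESeq2 comparison files were also deposited by the authors, and hold a signal (the mean over libraries of counts divided by size factors), fold changes, standard errors, test statistics and p-values. Only the signal was used, to recover how many reads lie behind an FPKM value. Of the genes above 0 in 1 library only, 91.7 to 100% came out whole within 0.05 reads. The size of 1 read was set from these same genes, so this is no independent check. All 18 columns of values were matched to a group by name, and the names carry no replicate number.

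Tested genes had a mean above 1 FPKM across the 9 libraries of their table (9905 in macrophages and 10147 in liver). Log2(FPKM + 0.5) was fitted for the 3 groups of each table together with limma 3.58.1 (lmFit, contrasts.fit, eBayes with a trend; R 4.3.3), and p-values were adjusted over all tested genes by Benjamini-Hochberg. The fold and p thresholds follow the study, with the adjusted p-value in liver. Ratios within a library were compared by two-sided exact permutation tests (scipy 1.17.1). Tables were handled with pandas 2.3.3 and numpy 2.4.6 under Python 3.11.15, plots were drawn with matplotlib 3.10.9, and the fit was checked on simulated data. That simulation drew all libraries independently, so it does not cover close pairs of libraries. The members, the gene lists and the 8-library results were chosen with earlier results of these data known. Genes of the lists are named up to 3 per direction, those with the largest fold change among the called, and the nearest genes are the 3 with the highest Pearson r. The alternatives were other pseudocounts, filters, scalings and fits, no minimum fold change, averaging of close libraries (macrophages only) and leaving out each library. The number of libraries limits the precision of all values.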

Additional observations from a re-analysis of the deposited data

Results flagged for a closer look

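Some members lay on opposite sides of zero in macrophages and liver under the same contrast, with each library of the first group above all of the second in one source and below all of them in the other. The difference between the sources was not tested, and their tables were normalized separately. Over all tested genes, the share without overlap for LPS against control was 33.3% in macrophages over 9 libraries, 85.6% over 8 and 45.0% in liver. For LPS+MIC-1 against LPS it was 36.1%, 80.3% and 9.75% in that order. For LPS+MIC-1 against control it was 66.4% in macrophages and 54.6% in liver. In no pair named here were both values called. For Gsr, LPS against control, the log2 fold change was -0.79 in macrophages over 9 libraries and -1.15 over 8, and 0.87 in liver. For G6pdx, LPS+MIC-1 against LPS, it was 1.33 over 9 libraries and 1.49 over 8, and -0.37 in liver, and for LPS against control it was -0.35 over 8 libraries and 0.85 in liver. For Gclc, LPS+MIC-1 against control, it was 0.28 in macrophages and -1.56 in liver, and for Gclm in that comparison 2.52 and -0.50. With FPKM brought to one sum in each library, every pair named here kept its opposite signs. Gclc in macrophages then stood at only 0.09 (limma adjusted p = 0.924 over 9 libraries), so its sign there is uncertain. Groups of 3 are too small for a check of single outlying libraries.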

How the results depend on the processing

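No paired analysis was possible because the columns of the tables carry no replicate number. Of 174 recomputed counts of called members, 154 stayed within 1.5 times the reported count and 20 did not, and of the recomputed log2 fold changes of single members 1414 kept their side of the threshold, 37 came to pass it, 55 no longer passed it and none that passed changed sign. The 4 members called in macrophages between LPS+MIC-1 and LPS over 9 libraries became 2 without a filter on low values, 2 with FPKM brought to one sum, 0 with only those 2 groups fitted and 0 with libraries 1 and 3 averaged, and the 3 called between LPS+MIC-1 and control became 0 with that averaging. Over 8 libraries the 3 called between LPS+MIC-1 and control became 8 at an adjusted p below 0.05 with no minimum fold. In liver the 1 called between LPS and control became 2 with one sum and 3 with no minimum fold, and the 1 called between LPS+MIC-1 and control became 3 with one sum.

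Leaving out 1 library gave, over 9 macrophage libraries, 0 to 5 called members for LPS against control (5 without LPS library 2), 0 to 6 for LPS+MIC-1 against LPS and 2 to 3 for LPS+MIC-1 against control, over 8 libraries 5 to 5, 6 to 6 and 2 to 4, and in liver 1 to 4 for LPS against control, 0 to 0 for LPS+MIC-1 against LPS and 1 to 1 for LPS+MIC-1 against control. With 2 libraries left in a group, the close pairs 1 and 3 set its spread. The causes were not tested. Depth limits Slc7a11 (2 to 19 reads) and Ggt1 in liver, and Pgd there is listed at 0 in 2 libraries.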
